A study of Saccharomyces cerevisiae with 4 samples.

Results

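The array used for this study carried, besides open reading frames with a systematic name, probe sets that are tied only to a chromosome. Of the 7519 probe sets in the authors' table, 1225 gave a chromosome in place of an open reading frame, and 780 of these had neither a gene symbol nor a list of several genes in their gene text. These 780 unnamed chromosome features, with 751 distinct names, are described here. They were chosen by their annotation, within a table that lists only probe sets that the array software called Present on at least 1 array. The other 445 chromosome features carried a symbol or several genes. The label of unnamed features held only in part, because 118 of the 780 had a sentence about a protein or an open reading frame as gene text, while 662 had nothing but their own name.

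The samples came from Saccharomyces cerevisiae BY4741, a haploid laboratory strain of mating type a with auxotrophic deletions that both groups share. Cells in mid-exponential growth in MM4 medium were moved to fresh medium. After 15 min they were harvested, 2 samples from medium that held 1 g/L quinine and 2 control samples from medium without the drug. Quinine is an alkaloid used against malaria. Its solvent was ethanol, which made up 0.7% of the medium by volume. The sources used here do not say whether the control cells also received it. Each sample was hybridised to 1 Affymetrix Yeast Genome S98 array, and nothing in the labels tells separate cultures from repeats of 1 culture. The p values therefore cover only how far these arrays differ, and part of that may be technical. The median deposited signal over all probe sets was 636 and 596 on the quinine arrays and 621 and 626 on the control arrays.

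The budding yeast genome is compact, and its first annotation kept mostly long open reading frames. Many short open reading frames and transcripts that run between or against genes were left without a name. Some were given one later when expression data, mass spectrometry or comparison with related fungi pointed to a product. Ty elements are retrotransposons, which move through an RNA copy that is read by reverse transcriptase. A cell carries many near-identical copies, so a probe set for a Ty sequence cannot be tied to 1 locus.

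Most features had names of 1 of 2 kinds. There were 603 with a name that starts with N and 163 with a name that starts with g, and in all 766 the second letter fitted the chromosome, A for chromosome I through P for chromosome XVI. An N name ends in W or C, the letters that systematic names use for the strand, while a g name ends in a number. The sources used here do not say what the letters N and g stand for. The rest were 7 pieces of Ty elements, 5 features of the mitochondrial genome, the replication origin feature ARS121 and a feature at the left end of chromosome II, SCIIYLEFT_4. None of the 751 names (0) matched a locus tag, symbol or synonym in the reference gene table of assembly R64.

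A Present call is the array software's verdict that a probe set detected its target. It did not follow the signal alone, as 2 features chosen after their values were seen show. NIL015W was Present on all 4 arrays at signals from 2.72 to 8.64, and NFL007C on neither control array at 3038 and 3635. Of the 780 features, 578 were Present on both quinine arrays and 563 on both control arrays, which is 74.1% and 72.2%. Over all probe sets of the table the shares were 90.7% with quinine and 89.4% in controls. On all 4 arrays, 65.4% of the features were Present, beside 61.3% of the other 445 chromosome features and 87.0% of all probe sets. Both sets of chromosome features thus had a share below that of all probe sets, but they differ in their mix of names. The N names were Present on all 4 arrays in 74.8% of cases and the g names in 30.7%. Among the other chromosome features it was 100% of 16 N names and 55.2% of 362 g names. Within each kind of name the unnamed features thus had the lower share. The authors' table lists only probe sets Present on at least 1 array, so these shares are not those of the whole array.

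Most Present calls were the same in both groups. All 4 arrays called 510 features Present, and 61 were Present on 1 array of each group. Another 14 features were Present on both quinine arrays and on neither control array, and 16 were Present on both control arrays and on neither quinine array. A further 54 were Present on both quinine arrays and 1 control array, against 37 with the reverse pattern. On a single array alone, 47 features were Present with quinine and 41 in controls, and these 88 did not enter the test.

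The test covered the 7249 probe sets of any kind that were Present on at least 2 of the 4 arrays, among them 692 of the 780 features. Log2 signals with quinine and in controls were compared in limma, with Benjamini-Hochberg adjustment over all 7249. In limma, 0 features and 0 probe sets in all (0%) had an adjusted p under 0.05. The lowest adjusted p was 0.158 among the features and 0.145 over the whole table. At an unadjusted p under 0.05 there were 72 features in limma, 10.4% of those tested, beside 13.3% of all tested probe sets. Of the 72, 45 were higher with quinine, where the share over all probe sets was 5.3%, and 27 were lower, where it was 7.97%. With the replicate number as a block, 117 features (16.9%) passed the adjusted threshold in limma, beside 21.4% of all tested probe sets. The labels do not say whether these numbers pair the arrays, so that fit is not used for the calls here.

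Because no feature passed, the levels below are given as values. The median log2 fold change of the features, quinine minus control, was 0.01, and that of all tested probe sets was -0.02. In 599 of the 692 features (86.6%) it lay within 0.5 of zero. On both quinine arrays 143 features were brighter than on both control arrays, which is 20.7% of those tested, beside 18.4% over all probe sets. On both quinine arrays 106 features were dimmer than on both control arrays, 15.3% beside 24.7% over all probe sets. The features thus leaned to higher values by these counts and the table as a whole to lower ones, but the difference between the features and the rest was not tested. The other chromosome features also had a median of 0.01, with 7.25% brighter and 7.75% dimmer on both quinine arrays. A log2 fold change above 1 was seen in 12 features, beside 1.57% of all tested probe sets, and one below -1 in 5 features, beside 1.05%.

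**Figure D1:**
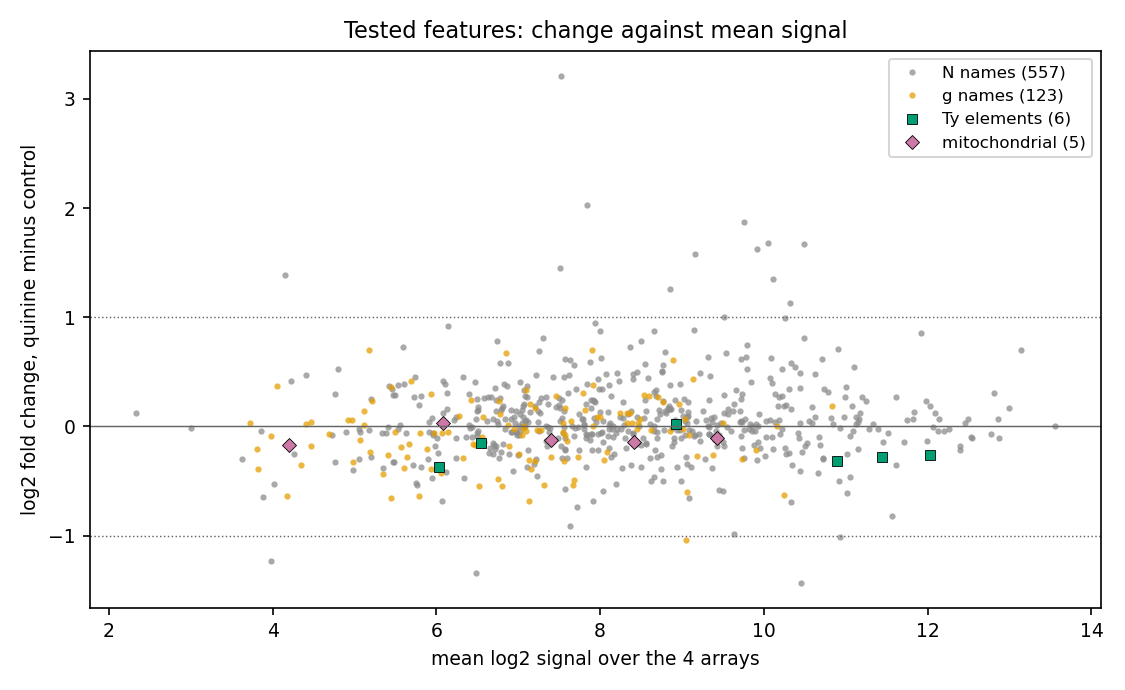
Log2 fold change (quinine minus control) of each tested feature except SCIIYLEFT_4 against its mean log2 signal over the 4 arrays, with dotted lines at 1 and -1. Most of the 692 features lie within 0.5 of zero, and the 12 points above 1 are all N names.

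N names made up 557 of the 692 tested features and held the most extreme values. Of 557 tested N names, 130 were brighter on both quinine arrays (23.3%) and 88 dimmer on both (15.8%), and their median log2 fold change was 0.03. Of 123 tested g names, 12 were brighter on both (9.76%) and 18 dimmer on both (14.6%), and their median was -0.04. The shares over all tested probe sets were 18.4% brighter and 24.7% dimmer. The 12 features above a log2 fold change of 1 were N names, and 4 of the 5 below -1 were too. Over all tested probe sets 1.57% lay above 1 and 1.05% below -1. As most tested features were N names, these counts do not set the N names apart. The N names that carried a protein sentence had an unadjusted p under 0.05 in limma in 14 of 65 tested (21.5%), against 51 of 492 (10.4%) among those with a name only and 13.3% over all probe sets. Whether these groups of features differ was not tested.

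The feature with the highest value was NDR105C on chromosome IV, which has no text beyond its name. Its signal was 711 and 437 on the quinine arrays, against 98.0 and 37.1 on the control arrays. Both quinine arrays were well above both control arrays, of which 1 was called Present. The log2 fold change was 3.21 ± 0.51 (SE, n = 2 each), a fold of 9.24, and limma gave an adjusted p of 0.158. Leaving out control replicate 1 put the log2 fold change at 3.91, leaving out control replicate 2 put it at 2.51, and a pseudocount of 50 put it at 2.42. Part of this fold rests on a control signal not called Present.

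NIL020C on chromosome IX had signals of 449 and 480 with quinine and of 151 and 84.9 in controls, a log2 fold change of 2.03 ± 0.31 (SE, n = 2 each) and an adjusted p of 0.158 in limma. It too was Present on 1 of the 2 control arrays, and the groups did not overlap. NLL004C on chromosome XII was Present on all 4 arrays. Its signals of 2862 and 2309 with quinine, against 918 and 707 in controls, lay apart, with a fold of 3.19. NDL014W on chromosome IV had signals of 355 and 257 with quinine and 121 and 101 in controls, with a fold of 2.73.

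NMR030W on chromosome XIII was read by a pair of probe sets that gave like values. The first had signals of 2414 and 1135 with quinine, against 701 and 294 in controls, and the second 2419 and 1481 with quinine, against 809 and 432 in controls. Replicate 1 was the brighter one in each group. The folds were 3.65 and 3.20, with adjusted p values of 0.264 and 0.215 in limma. For the first, with a log2 fold change of 1.87, leaving out control replicate 1 gave 2.49 and leaving out control replicate 2 gave 1.24. Probe sets of 1 name share their target and are not replicates of each other.

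A run of features with consecutive numbers on the right arm of chromosome VII lay higher with quinine. NGR071W carries the text of a putative protein of unknown function found by comparison with other yeasts, as does NGR072W. The brighter of the probe sets for NGR071W had signals of 1145 and 855 with quinine, against 367 and 296 in controls, a log2 fold change of 1.58 ± 0.23 (SE, n = 2 each) and an adjusted p of 0.158 in limma. Its dimmer probe set had a log2 fold change of 0.92. NGR072W and NGR073W, chosen after their values were seen, had signals of 2112 and 1475 with quinine, against 796 and 601 in controls, and of 2173 and 1646 with quinine, against 952 and 783 in controls. Their log2 fold changes were 1.35 and 1.13. In all 4 probe sets of this run both quinine arrays were above both control arrays. Whether the probe sets read 1 transcript was not tested.

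NKL014W on chromosome XI was Present on both quinine arrays and on neither control array. Its signal was 1968 and 1474 with quinine, against 714 and 426 in controls. With the control signal taken as an upper limit, the level was at least 3.09-fold higher with quinine, with an adjusted p of 0.170 in limma. The same Present pattern held for NER022W, with signals of 287 and 214 with quinine, against 172 and 165 in controls, at least 1.47-fold higher. Such bounds assume that the signal of the group without a Present call is a ceiling, which the call itself does not show. They also leave out the error between arrays. For each feature named with a bound, the bound equals the plain fold, so it is an estimate and no lower limit of the change. For NMR001W, gHR04_0 and gPL11_1 the bounds were 1.27-fold, 1.29-fold and 1.26-fold, and the arrays of NMR001W and gHR04_0 overlapped between groups. The log2 fold change of NMR001W was 0.06 without quinine replicate 1, and that of gHR04_0 was -0.09 without control replicate 1. The 14 features with this pattern had log2 fold changes on either side of zero, so a gained call did not always go with a brighter signal.

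At the other end, NPR047C on chromosome XVI, a putative protein of unknown function, had signals of 1272 and 573 with quinine, against 2015 and 2624 in controls. Both quinine arrays were below both control arrays, and the quinine arrays differed more from each other than the control arrays did. The log2 fold change was -1.43 ± 0.41 (SE, n = 2 each), and limma gave an adjusted p of 0.261. NLR079C on chromosome XII had signals of 1672 and 1132 with quinine, against 3264 and 2364 in controls, and a log2 fold change of -1.01. NDR057W on chromosome IV was dim throughout, at 8.37 and 12.7 with quinine and 19.9 and 29.6 in controls, a log2 fold change of -1.23 that was -0.30 with a pseudocount of 50.

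NGR124C and NGR123C, again with consecutive numbers on chromosome VII, share 1 text, that of a putative protein whose fusion to green fluorescent protein localizes to the nucleolus, the site of ribosome assembly. NGR124C had signals of 53.0 and 59.5 with quinine, against 158 and 129 in controls, a log2 fold change of -1.34 ± 0.21 (SE, n = 2 each) and an adjusted p of 0.158 in limma. NGR123C had signals of 669 and 480 with quinine, against 1372 and 921 in controls, and a log2 fold change of -0.99. In both, the groups were apart and the quinine arrays were the lower ones.

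On chromosome XV, NOL037C had signals of 151 and 138 with quinine, against 293 and 251 in controls, and a log2 fold change of -0.91. NOL039W had signals of 2083 and 2515 with quinine, against 3268 and 4992 in controls, and a log2 fold change of -0.82. Neither has a text. NAL004W on chromosome I was Present on both control arrays and on neither quinine array. Its signals were 163 and 162 with quinine and 337 and 218 in controls. The bound, again equal to the plain fold, was 1.67-fold lower with quinine. Among the other features that were Present in controls only, the bounds were 1.47-fold for gBR08_2, 1.39-fold for gMR06_2, 1.37-fold for NDR138C and 1.27-fold for NDR107W, and the arrays of gMR06_2 overlapped between groups.

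**Figure D2:**
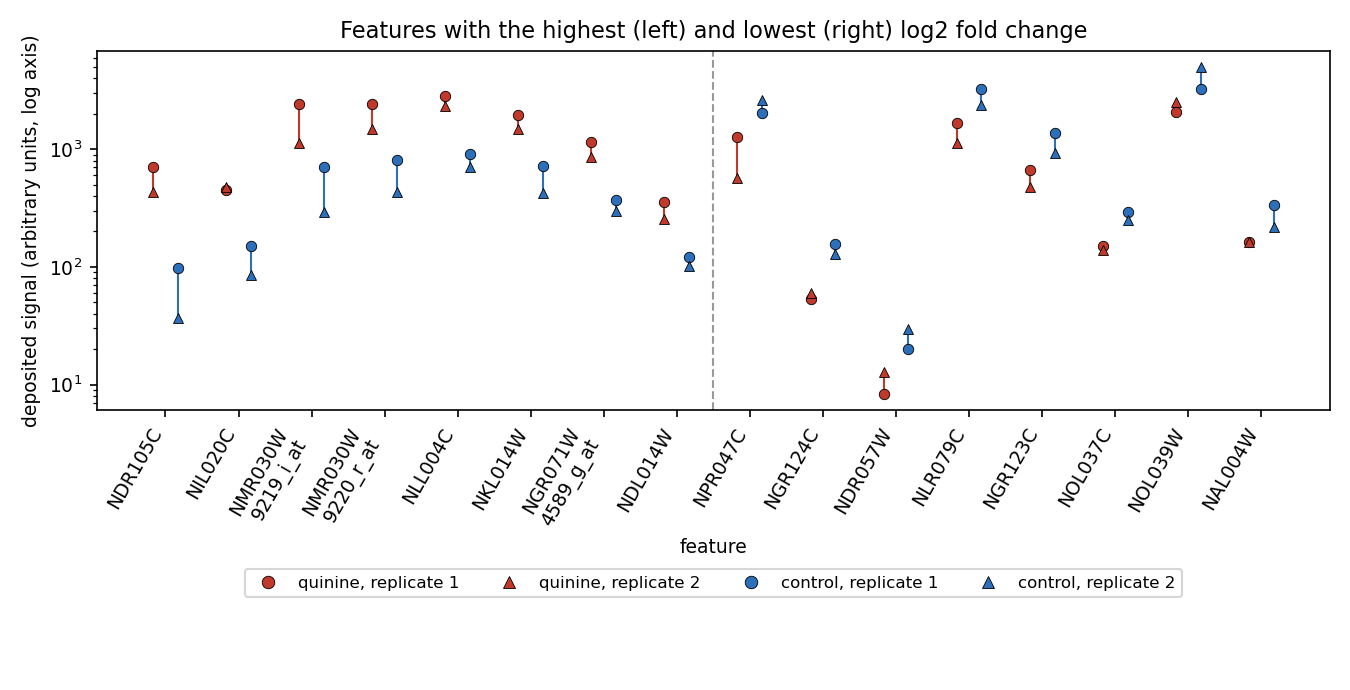
Deposited signal (log axis) on each quinine and control array for the probe sets with the 8 highest and the 8 lowest log2 fold changes among features whose arrays did not overlap between groups. Left of the dashed line both quinine arrays lie above both control arrays, from NDR105C at 711 and 437 against 98.0 and 37.1, and right of it both lie below.

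The 5 features with the largest mean signals were NDR171C, NJL020C, NBR015C, NEL004C and NCR009C. Signals of different probe sets also depend on their probes, so their order is not an order of transcript levels. NDR171C, a putative protein of unknown function, had signals of 11823 and 12218 with quinine, against 11491 and 12555 in controls, and its log2 fold change of 0.00087 ± 0.08 (SE, n = 2 each) was the flattest of the 5. NJL020C, whose text names a protein found in purified mitochondria, had signals of 11845 and 11127 with quinine, against 9162 and 5423 in controls. Its quinine arrays were above both control arrays, and its log2 fold change of 0.70 ± 0.25 (SE, n = 2 each) had an adjusted p of 0.340 in limma. NBR015C, NEL004C and NCR009C had log2 fold changes of 0.17, -0.11 and 0.07. NCR009C is among 10 features whose text says that expression profiling and mass spectrometry identified the protein. All 10 were tested, 4 were brighter on both quinine arrays and 1 dimmer on both, beside 18.4% brighter and 24.7% dimmer over all tested probe sets, and their median log2 fold change was 0.06.

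Among features whose text rests on homology or on a comparison of genomes, the 11 tested had log2 fold changes between -0.50 and 1.58, with quartiles at -0.18 and 1.09, and 4 were brighter (36.4%) and 3 dimmer (27.3%) on both quinine arrays, beside 18.4% brighter and 24.7% dimmer over all tested probe sets. The 4 brighter were both NGR071W probe sets, NGR072W of the same run, and NPL022C, so they are not 4 separate features. NPL022C, a protein found by homology to Ashbya gossypii, was chosen here after its values were seen. It had signals of 875 and 583 with quinine, against 368 and 242 in controls, a fold of 2.40. The 14 features with the text of a dubious open reading frame lay between -0.37 and 0.38, with a median of -0.0069. In that group 2 were brighter (14.3%) and 0 dimmer on both quinine arrays, beside the same shares over all probe sets. The difference between the text groups was not tested.

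Several g names had a text that names a gene, so their values can be set beside those of that gene. Whether these features read the gene itself was not tested. EGH1 (YIR007W) encodes a glucosidase that acts on sterol glucosides, and its own probe set had signals of 332 and 242 with quinine, against 189 and 171 in controls, a log2 fold change of 0.66. Of the 3 features that name this gene 1 was tested, gIR04_6, with 319 and 292 with quinine, against 180 and 197 in controls, and a log2 fold change of 0.70. The other two, gIR04_4 at 81.1 and 122 with quinine, against 64.4 and 74.0 in controls, and gIR04_5 at 105 and 141 with quinine, against 67.1 and 78.6 in controls, were Present on 1 array and were also brighter on both quinine arrays. For IPA1 (YJR141W), with a role in messenger RNA 3′ end processing, the gene's probe set had a log2 fold change of -0.44 and the features gJR14_4 and gJR14_5 had -0.55 and -0.31. The tested features of EGH1 and IPA1 thus gave values close to those of the gene they name, within their standard errors of 0.17 to 0.22. They were read on the same arrays as the gene's probe set, so this is no independent support.

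The likeness was weaker for DCK1 (YLR422W), a relative of the human DOCK exchange factors. Its own probe set had a log2 fold change of 0.53, while the 4 tested of its 6 features were all lower, from -0.03 to 0.43. YPK9 (YOR291W), a vacuolar P-type ATPase, had -0.09 at its own probe set, and the 5 tested of its 6 features ranged from -0.22 to 0.03. Those 5 were all brighter on replicate 2 in both groups, unlike the gene's probe set. For example, gOR07_8 had signals of 231 and 480 with quinine, against 294 and 450 in controls. The gene's probe set had 1609 and 1417 with quinine, against 1602 and 1618 in controls. All adjusted p values of these features were between 0.238 and 1 in limma. NEL010C, whose text says that it partly overlaps TIM9, a gene of mitochondrial protein import, had a log2 fold change of -0.05, beside -0.04 for the probe set of TIM9.

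**Figure D3:**
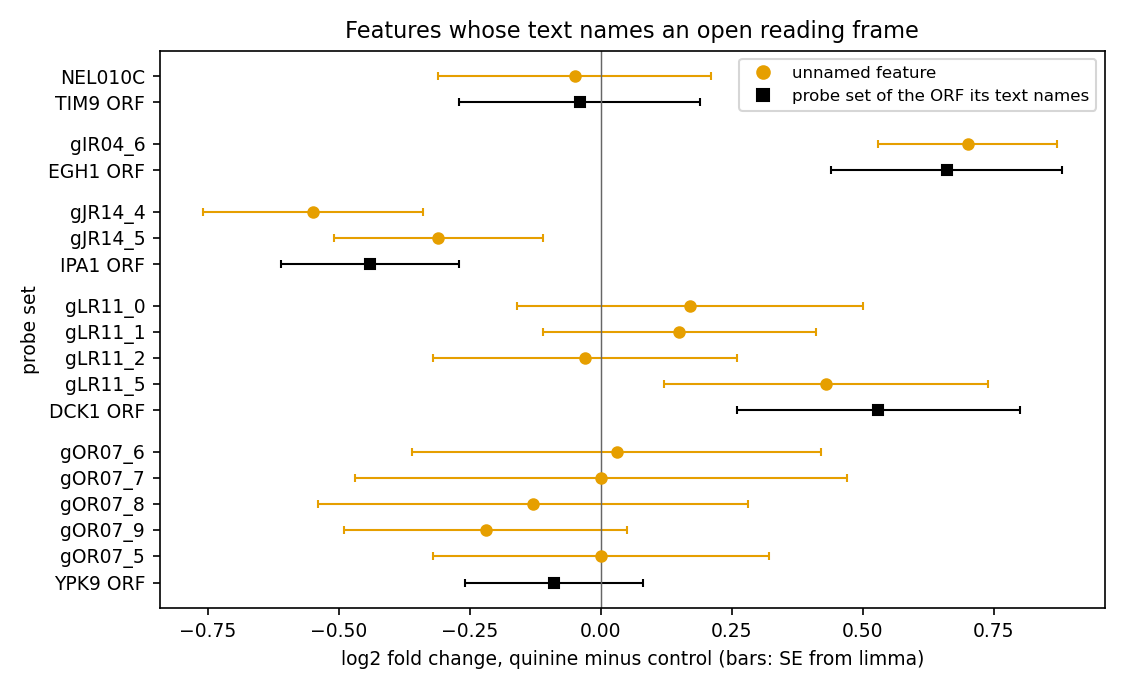
Log2 fold change (quinine minus control) with its standard error for features whose text names an open reading frame (circles) and for that frame's own probe set (squares). The EGH1 pair lies at 0.70 and 0.66, the IPA1 features lie on the negative side with their gene, and the YPK9 features lie around zero.

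There were 20 names that were tested with over 1 probe set. Their probe sets share a target and the same arrays, so a like sign is no independent support. In 15 of the 20 all probe sets had the same sign, and in 2 the values lay over 0.5 apart. The widest gap, 0.67, was that of NGR071W.

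Pieces of Ty elements and mitochondrial features differed more between replicates than between groups. For the tested Ty features, the median distance between replicates was 0.61 on the log2 scale with quinine and 0.89 in controls. The Ty2 feature TY2B_LR1_ex2_0 had signals of 1033 and 2790 with quinine, against 1044 and 4271 in controls, and replicate 2 was the brighter one in each group. Its log2 fold change was -0.32 ± 0.78 (SE, n = 2 each). Not all Ty features had such a gap: TY4B_J_ex2_4 had signals of 93.5 and 84.85 with quinine, against 86.25 and 113 in controls. The 6 tested Ty features had log2 fold changes between -0.37 and 0.02. On both quinine arrays 0 were brighter and 0 dimmer, beside 18.4% brighter and 24.7% dimmer over all tested probe sets. With so few features that count says little. The mitochondrial feature Q0155, a dubious open reading frame, had signals of 456 and 963 with quinine, against 348 and 1463 in controls. The 5 mitochondrial features ranged from -0.17 to 0.03. NLR036W has a text that places it inside the gene of the 35S ribosomal RNA on the opposite strand. Its signals were 754 and 1622 with quinine, against 823 and 1361 in controls, so the groups overlapped there too. The features named in this paragraph were chosen after their values were seen.

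The side of the replicates went with the kind of feature. Among g names, 83 of 123 tested (67.5%) were brighter on replicate 2 in both groups, as were 5 of 6 Ty features and 5 of 5 mitochondrial features. For N names it was 150 of 557 (26.9%), and over all tested probe sets 30.4%. The median difference of replicate 1 minus replicate 2 was -0.48 with quinine and -0.24 in controls for g names, and 0.09 and 0.05 for N names. For the 319 tested g names among the other chromosome features it was -0.64 and -0.51, so this side was not particular to the unnamed ones. Across the 692 tested features, the differences between replicates in quinine arrays and in control arrays had a Pearson correlation of 0.715, as a description over probe sets that share the same 4 arrays. The part of this pattern in the comparison of the groups was not tested beyond the fits without single arrays and with the replicate number as a block. The median of the g names was -0.33 without quinine replicate 2 and 0.21 without quinine replicate 1, so its sign rests on single arrays.

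**Figure D4:**
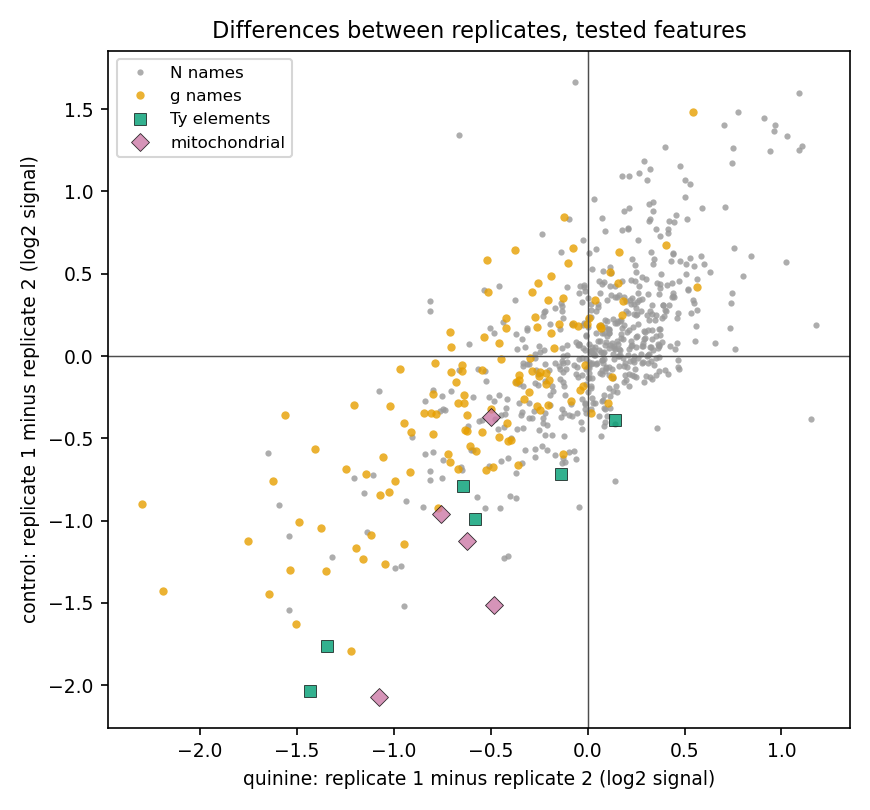
Difference of log2 signal between replicate 1 and replicate 2 on the quinine arrays (x axis) and on the control arrays (y axis) for each tested N, g, Ty and mitochondrial feature. The g names, Ty pieces and mitochondrial features lie mostly in the lower left, brighter on replicate 2 in both groups, and the points as a whole have a correlation of 0.715.

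Over the nuclear chromosomes, the number of features ranged from 91 on chromosome VII and 84 on chromosome IV to 16 on chromosome VI. The median log2 fold change of a nuclear chromosome's features lay between -0.09 on chromosome X and 0.11 on chromosome IX. Chromosomes differ in their mix of N and g names. With N names alone the medians lay between -0.05 on chromosome X and 0.10 on chromosome IX, and that of chromosome XII was 0.09 in place of 0.0044. Chromosome IX also had the largest share of features brighter on both quinine arrays, 8 of 22 tested (36.4%), beside 20.7% of all tested features and 18.4% of all tested probe sets, and 3 of its 22 were dimmer on both. Those 8 were NIL020C, NIR004C, NIL022W, NIR006W, gIR04_6, NIR005C, NIR002W and NIL021C, of which all but NIL020C were chosen after their values were seen. NIR004C had signals of 1144 and 935 with quinine, against 546 and 492 in controls, and a fold of 2.00. NIL022W had signals of 739 and 801 with quinine, against 335 and 523 in controls, with an adjusted p of 0.270 in limma. The 22 features are few, and no chromosome was tested against the others.

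Chromosome I was the nuclear chromosome with 0 features brighter on both quinine arrays, and 5 of its 22 tested were dimmer on both (22.7%), beside 24.7% over all probe sets. Its median of -0.08 was 0.02 without quinine replicate 1 and without control replicate 1, and -0.03 for its N names alone. Chromosome VIII had 4 brighter (18.2%) and 1 dimmer (4.55%) of 22, and chromosome IV had 20 brighter (27.8%) and 7 dimmer (9.72%) of 72, beside 18.4% brighter and 24.7% dimmer over all tested probe sets. By the last letter of the N names, 60 of 270 ending in W were brighter and 31 dimmer on both quinine arrays, and they had a median log2 fold change of 0.05. For those ending in C it was 70 of 287 brighter and 57 dimmer, and the median was 0.01. These are 22.2% brighter and 11.5% dimmer for W and 24.4% and 19.9% for C, beside 18.4% brighter and 24.7% dimmer over all tested probe sets, and the difference between the letters was not tested. By arm, the medians were 0.03 for 214 tested N names of left arms and 0.04 for 343 of right arms.

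**Figure D5:**
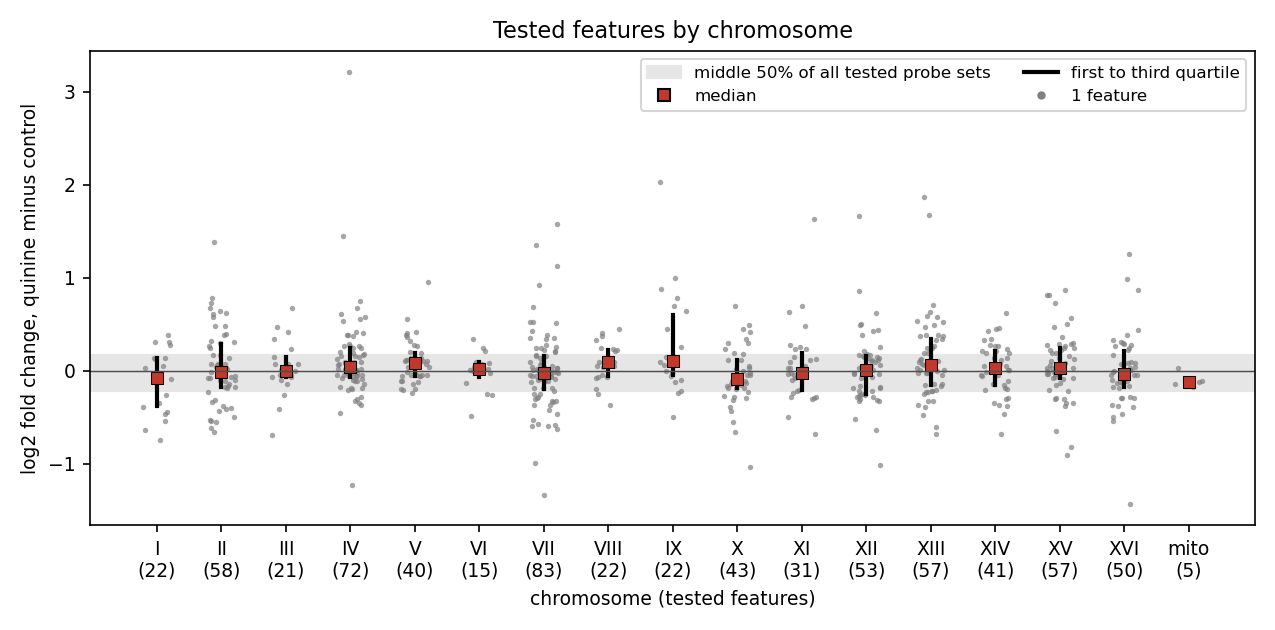
Log2 fold change (quinine minus control) of the tested features by chromosome, with the median (square) and the quartile range (bar), and a grey band for the same quartile range of all tested probe sets. The medians lie between -0.12 on the mitochondrial genome and 0.11 on chromosome IX, and most quartile bars lie near the band.

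Names and texts did not always point to the same place. NJR027W is tied to chromosome X, and its text describes a protein beside the left telomere of chromosome V. The feature gAR03_6 is tied to chromosome I, and its text places it in a Ty1 long terminal repeat whose name has the letter of chromosome IV. Such probe sets may read repeated sequence, and their chromosome is given here as the table has it. The suffix of a probe set, by which Affymetrix marks probe sets that match several sequences or break its design rules, was the plain one in 629 of the 780 features, and the 52 tested with the suffix for shared sequence had a median log2 fold change of -0.03.

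A mark stands in the authors' deposited table beside 59 of the 780 features (7.56%) and beside 777 of all 7519 probe sets (10.3%). By the authors' deposited table, 40 of the 59 were higher and 19 lower with quinine, while over all marked probe sets 306 were higher and 471 lower. Of the features marked in the authors' deposited table, 52 were N names and 7 g names, and 55 were tested. All 55 had arrays that did not overlap between groups, but the mark was made from these same arrays. That count is therefore no separate support. All 8 features marked on chromosome IX in the authors' deposited table were higher with quinine. They were 33.3% of the 24 on that chromosome, beside 7.56% of all features and 10.3% of all probe sets. Most of them are among the features of chromosome IX listed above, so they add no separate count. Among the 8, gIR04_5 and gIR04_6 name the same gene, EGH1.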

How the data were processed

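Arrays of 2 quinine and 2 control samples were grouped by the labels. Each array's deposited values are signal intensities on a linear scale. MAS5 is named in the submitters' processing notes without a role or version, and the scaling of the arrays is not stated. The authors' table also holds, per the file headers, each group's mean intensity, standard errors and fold changes with bounds, deposited as the authors' own scores, and how many of its arrays were called Present, deposited as a percent. No genome build is named, so no coordinates are given.

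The deposited signals were taken to log2 without rescaling or a pseudocount for probe sets Present on at least 2 of the 4 arrays. The test was that of limma 3.58.1 in R 4.3.3 (lmFit, then eBayes with its trend option, 2 residual degrees of freedom, a prior of 3.28), with Benjamini-Hochberg adjustment over 7249 probe sets. The code was tested on simulated data with independent noise on each array and large changes. That test says nothing of how well smaller changes can be called on these arrays. With 2 arrays a group, precision is limited by their number. A feature Present on no array of a group has a bound there, the higher of its own signal and the lowest signal among probe sets Present on both arrays of that group. For the features named with a bound it was their own signal. The members and groupings were chosen with earlier results of these data known. The rule for named features was every feature with an adjusted p under 0.05, the 8 highest and 8 lowest log2 fold changes without overlap of arrays, the 5 largest mean signals, and up to 5 features Present on both arrays of 1 group and on none of the other, each way. Alternatives were quantile normalization, median centring, no filter, Present on all 4 arrays, a pseudocount of 50, no variance trend, the replicate number as a block and leaving out each array.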

Additional observations from a re-analysis of the deposited data

How the results depend on the processing

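No feature passed limma's adjusted threshold (0 of 692, with 72 at an unadjusted p under 0.05) under quantile normalization, median centring, no filter, Present on all 4 arrays, a pseudocount of 50 or no variance trend, where 64 to 77 had an unadjusted p under 0.05. Leaving out 1 array gave 0 to 3 features and 0 to 27 probe sets in all. The 3 came without control replicate 1 and were NDR105C, NIL020C and NJL020C, with adjusted p values of 0.0293, 0.0346 and 0.0346 in limma. Without an array a group of 1 is assumed to vary like the other.

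With the replicate number as a block, 117 features were called (72 higher and 45 lower, 16.9%), beside 1548 of all probe sets (21.4%). The labels give the replicates a shared number but no shared culture or day, and with 2 pairs the correlation of 0.695 between their differences over all tested probe sets is a hint from the data and not from the design. That fit has 1 residual degree of freedom and a prior of 54.1. The cause of the gain was not tested.

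The median log2 fold change of the features was 0.04 with median centring, a setting that put the median of all probe sets at 0.0084, and ranged from 0.0055 to 0.07 without single arrays. Counts brighter and dimmer on all remaining quinine arrays ranged from 250 to 262 and from 205 to 232, higher by construction, since 3 arrays overlap less often than 4. Medians by name and chromosome were recomputed as an alternative added after seeing the data: for g names the median was -0.01 with quantile normalization and 0.02 for those Present on all 4 arrays, and ranged from -0.33 to 0.21 without single arrays. That of chromosome IX stayed between 0.06 and 0.24. Over 29 named probe sets, 6 of 307 values had another sign. NDR171C was at -0.02 with quantile normalization and ranged from -0.06 to 0.06 without single arrays, NEL004C ranged from -0.28 to 0.06 and gHR04_0 from -0.09 to 0.84. Weak signals limit what can be seen in g names, of which 40 of 163 were Present on 1 array and were not tested.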
